A study of Mus musculus with 6 samples.

Results

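Transcript levels of 10 genes that slow or stop cell division were examined in granulosa cell libraries with and without cetylpyridinium chloride (CPC), a cationic antiseptic of mouthwashes. They are the GADD45 genes Gadd45a, Gadd45b and Gadd45g, the BTG genes Btg1, Btg2 and Btg3, the cyclin G genes Ccng1 and Ccng2, and the polo-like kinase genes Plk2 and Plk3. They were chosen by symbol among the 55487 genes of the count files. Each symbol had 1 identifier, and all 10 passed the filter on low counts.

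The libraries were titled as granulosa cells of the mouse ovary, which surround and nourish the oocyte. The control group held 3 libraries given phosphate-buffered saline and the CPC group held 3 given cetylpyridinium chloride, all of wild-type genotype. The records state neither dose nor exposure time nor age, nor whether exposure took place in animals or in culture. The same records also name SKOV3, a human ovarian cancer line, and transfection of GATA4, against the mouse identifiers in the files, so the source of the cells rests on the titles. Separate animals or cultures are nowhere stated for the libraries. All p-values therefore describe how far these libraries scatter. Libraries of the same group differed by a chi-square of 17.6 to 45.9 per degree of freedom, more than counting noise alone gives. The source of that scatter was not tested and may still be technical.

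Total counts were 19079345 to 23157541 per library, and 4.17% to 5.25% of them fell on mitochondrial genes. Granulosa cell transcripts were present, with Inha at 19494 to 44757 counts and Foxl2 at 662 to 1971 counts, while Amh had 0 to 3 counts and Cyp19a1, the aromatase gene, had 8 to 29. Of 9 tested granulosa cell markers 7 were lower in CPC and 0 higher by edgeR (0 at an unadjusted p under 0.05, 0 by DESeq2 and 0 by limma-voom). By the same edgeR test 19.7% of all tested genes were lower and 19.6% higher. Leukocyte markers fell in the same libraries, 9 of 11 tested, and their sum was 201 to 343 CPM (counts scaled to a common library size) in control and 14.4 to 38.5 CPM in CPC, with no marker at 0 in all 6 libraries. Their part in the results that follow was not tested. Replicate 1 stood apart by surface epithelium markers, which summed to 361 CPM in control 1 and 396 CPM in CPC 1 and to 92.2 to 167 CPM in the other 4 libraries. Theca and stroma markers, with Cyp17a1 at 0 throughout, summed to 956 CPM in control 1, 1064 CPM in CPC 1 and 844 CPM in CPC 2, and to 303 to 538 CPM in the rest. Acta2 was the largest part of each sum, with 14051 counts in CPC 2 and 15532 in CPC 1. Every other tested marker of this list also had fewer counts in CPC 2, such as Col1a1 (835 against 3091) and Dcn (219 against 1885). Oocyte markers summed to at most 4.45 CPM (Figla was at 0 throughout), endothelium markers to at most 6.89 CPM and erythroid markers to at most 0.0932 CPM, with 5 of the 6 erythroid markers at 0 in all libraries. In bulk libraries fewer cells of a type and less RNA per cell cannot be told apart.

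GADD45 proteins are small acidic proteins that bind the kinase MAP3K4 and so activate p38 and JNK signalling, and they also bind CDK1 and PCNA. BTG proteins recruit the CCR4-NOT deadenylase to messenger RNAs and speed their decay. Cyclin G1 is a target of p53 that works with phosphatase 2A and MDM2, cyclin G2 is raised by FOXO factors, and the kinases PLK2 and PLK3 respond to stress and DNA damage, unlike the mitotic kinase PLK1.

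Promoter sequence from RefSeq (GRCm38.p6) was found for all 10 members in 11 windows, as Btg3 has 2 start sites. The windows of Gadd45a, Btg1 and Btg2 are shown because these genes changed most, and that of Plk2 because it shares a motif with Btg2 although its level was not called changed. Each run reads 5′ to 3′ up to the base before the first annotated start of the gene, and capitals mark every match to the motifs described after the sequences.

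Gadd45a (chr6:67037458-67037657, minus strand): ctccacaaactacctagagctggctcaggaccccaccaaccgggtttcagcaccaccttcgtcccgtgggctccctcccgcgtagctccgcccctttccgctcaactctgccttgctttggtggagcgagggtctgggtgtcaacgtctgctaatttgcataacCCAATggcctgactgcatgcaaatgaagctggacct
Btg1 (chr10:96616751-96617000, plus strand): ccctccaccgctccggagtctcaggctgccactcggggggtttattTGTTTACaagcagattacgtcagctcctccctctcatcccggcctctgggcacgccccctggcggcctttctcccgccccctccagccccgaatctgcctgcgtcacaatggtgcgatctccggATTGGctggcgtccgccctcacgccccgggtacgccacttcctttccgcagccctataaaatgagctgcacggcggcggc
Btg2 (chr1:134079156-134079405, minus strand): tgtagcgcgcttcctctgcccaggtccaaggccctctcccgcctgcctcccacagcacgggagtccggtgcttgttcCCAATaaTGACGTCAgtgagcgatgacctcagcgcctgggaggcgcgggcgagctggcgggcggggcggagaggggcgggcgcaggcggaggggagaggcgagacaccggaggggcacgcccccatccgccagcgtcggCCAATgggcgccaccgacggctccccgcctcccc
Plk2 (chr13:110394794-110395043, plus strand): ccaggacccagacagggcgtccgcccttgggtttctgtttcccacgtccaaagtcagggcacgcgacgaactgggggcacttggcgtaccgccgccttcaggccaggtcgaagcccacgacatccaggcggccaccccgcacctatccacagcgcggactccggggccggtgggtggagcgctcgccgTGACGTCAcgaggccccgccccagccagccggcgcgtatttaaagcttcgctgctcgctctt

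Motifs were searched on both strands from 250 bases before to 50 bases after each start. The cyclic AMP response element TGACGTCA stood 166 bases before the start in Btg2 and 62 bases before it in Plk2, and 1.79% of the 32851 promoters in the table hold it. The FOXO motif GTAAACA was found in Btg1 alone among the members, on the opposite strand (TGTTTAC) 204 bases before the start, and in 3.65% of all promoters. CCAAT, which reads ATTGG on the opposite strand, was found in 7 of the 10 genes and in 37.4% of all promoters. In Btg2 a CCAAT ended just before the cyclic AMP element without overlapping it. The ATF4 and C/EBP composite motif TGATGNAAT (0.965% of all promoters), the AP-1 motif TGANTCA (7.81%), the NF-kB motif (1.63%), the p53 response element (0.0731%) and the CArG box (1.63%) had no match in any member window. A match describes letters in the window and not a bound site.

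Across the 10 members, 5 were higher in CPC (Gadd45a, Btg1, Btg2, Btg3 and Plk3) and 1, Ccng2, was lower. Calls are by the quasi-likelihood test of edgeR at an adjusted p of 0.05 (Benjamini-Hochberg, 15000 genes tested). Of all tested genes 19.6% were higher and 19.7% lower, 39.3% in either direction. The median log2 change was 0.36 for the members and -0.0032 for all tested genes. The groups did not overlap in 7 members, 6 of them higher in CPC and 1 lower, where 26.7% of all tested genes were higher without overlap and 26.8% were lower without overlap (53.5% in either direction). In 7 members every CPC library was above the control of its own number, which held for 36.3% of all tested genes, and in 1 every one was below, which held for 37.6%. When the replicate numbers, which pair the libraries, entered the fit as a block, Ccng1 was also called. Then 6 members were higher and 1 lower, against 26.5% and 27.9% of all tested genes (54.4% either way). DESeq2 gave 5 higher and 2 lower members, against 16.2% and 17.0% of its tested genes (33.1% either way). The number of higher members was 3 without CPC 2, and also 3 when either replicate 1 or replicate 2 was dropped from both groups. Calls fell among all tested genes as well. From 2945 of 15000, higher genes went to 2314 of 15480 without CPC 2. They numbered 928 of 15025 without replicate 1 of both groups and 1736 of 15219 without replicate 2 of both groups.

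**Figure D1:**
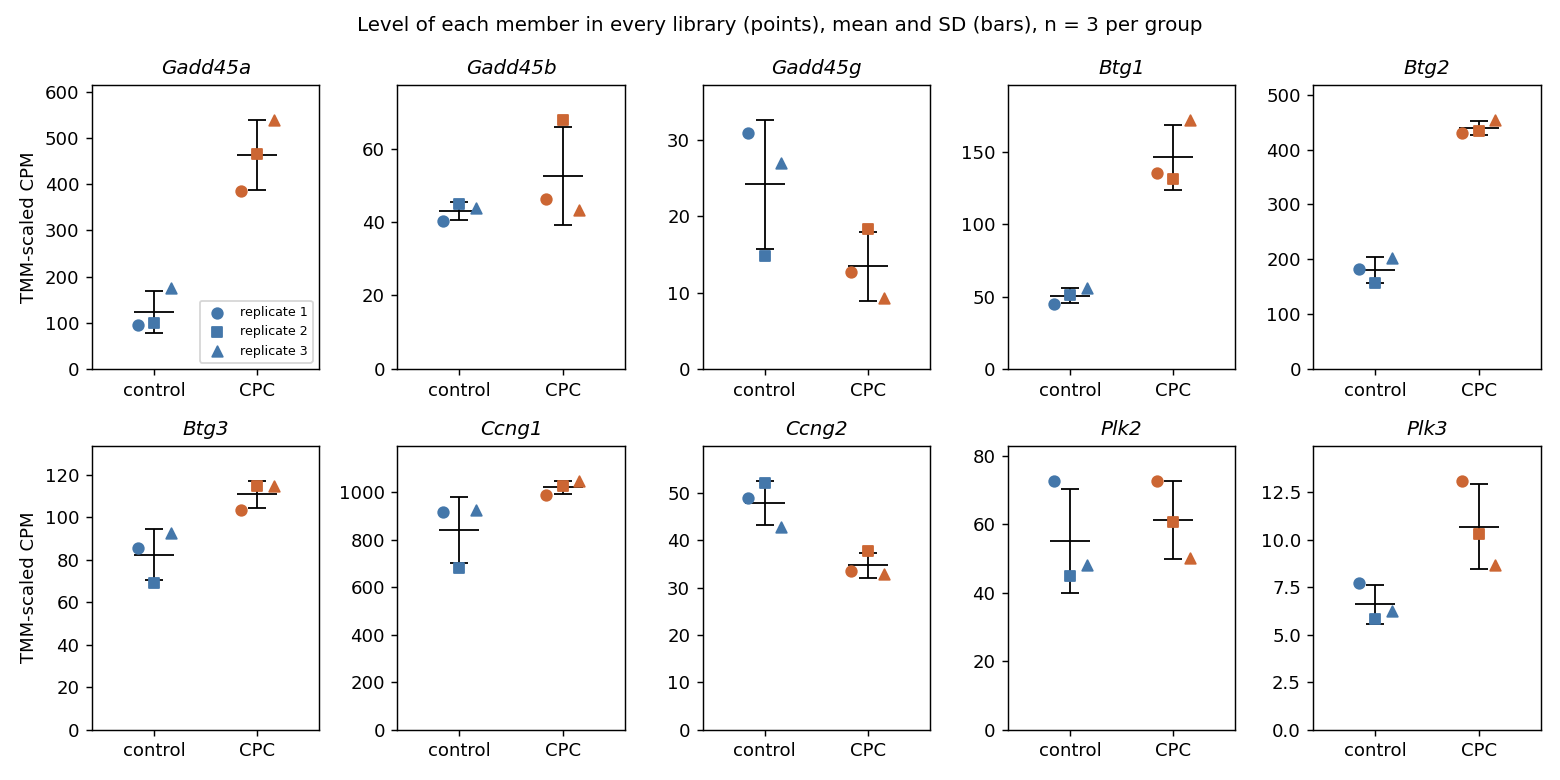
TMM-scaled CPM (vertical axes, each from 0) of the 10 genes in 3 control and 3 CPC libraries. Points are libraries, marked by replicate number, and bars give the mean and SD; Gadd45a, Btg1 and Btg2 stand well apart between the groups, while Gadd45b, Gadd45g and Plk2 overlap.

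The GADD45 genes did not move together. Gadd45a, the member best known as a p53 target (ENSMUSG00000036390; chromosome 6, 67035096 to 67037457), had 94.1, 99.1 and 176 CPM in control 1 to 3 and 386, 466 and 539 CPM in CPC 1 to 3. Control 3 was the highest control and still lay below every CPC library. The rise was 3.77-fold (95% interval 2.40 to 5.92), a log2 change of 1.91 ± 0.27 (standard error; edgeR adjusted p = 0.00296), and 164 of the tested genes had a larger log2 change. It was called in every setting tried. The antisense RNA E230016M11Rik shares 337 of the 1764 exon bases of Gadd45a in GENCODE M21 and had 44 to 154 counts per library, against 1763 to 11559 for Gadd45a. The strand used in counting is not stated.

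Gadd45b, the member induced by NF-kB and TGF-beta signalling (chromosome 10, 80930073 to 80932204), had 40.1, 45.0 and 43.9 CPM in control 1 to 3 and 46.2, 67.8 and 43.3 CPM in CPC 1 to 3. CPC 2 stood above the rest and CPC 3 lay within the control range. The log2 change was 0.29 ± 0.17 (edgeR adjusted p = 0.227), with an interval of -0.12 to 0.69, and without CPC 2 it was 0.072.

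Gadd45g, the third paralog (chromosome 13, 51846678 to 51848468), had 30.9, 14.7 and 27.0 CPM in control 1 to 3 and 12.8, 18.3 and 9.32 CPM in CPC 1 to 3. Control 2 lay inside the CPC range and CPC 2 was the highest CPC library, so replicate 2 went against the other two pairs. Between libraries of equal number the log2 difference was -1.28, 0.31 and -1.54. The log2 change was -0.85 ± 0.34 and missed the threshold (edgeR adjusted p = 0.0941; 0.161 with the replicate block), with an interval of -1.67 to -0.025 before adjustment. DESeq2 called it lower (adjusted p = 0.0250), as did edgeR without control 2 (adjusted p = 0.0296) and without replicate 2 of both groups (0.0146).

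The make-up of the family shifted toward Gadd45a. Per kilobase of exon the 3 genes summed to 157 ± 40.5 CPM per kilobase in control and 432 ± 61.9 in CPC (SD, n = 3). Gadd45a held 56.1% to 70.8% of that sum in control libraries and 84.5% to 91.2% in CPC libraries. Gadd45b held 22.2% ± 5.11 in control and 9.54% ± 2.39 in CPC, and Gadd45g held 14.7% ± 5.58 and 2.96% ± 1.03.

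**Figure D2:**
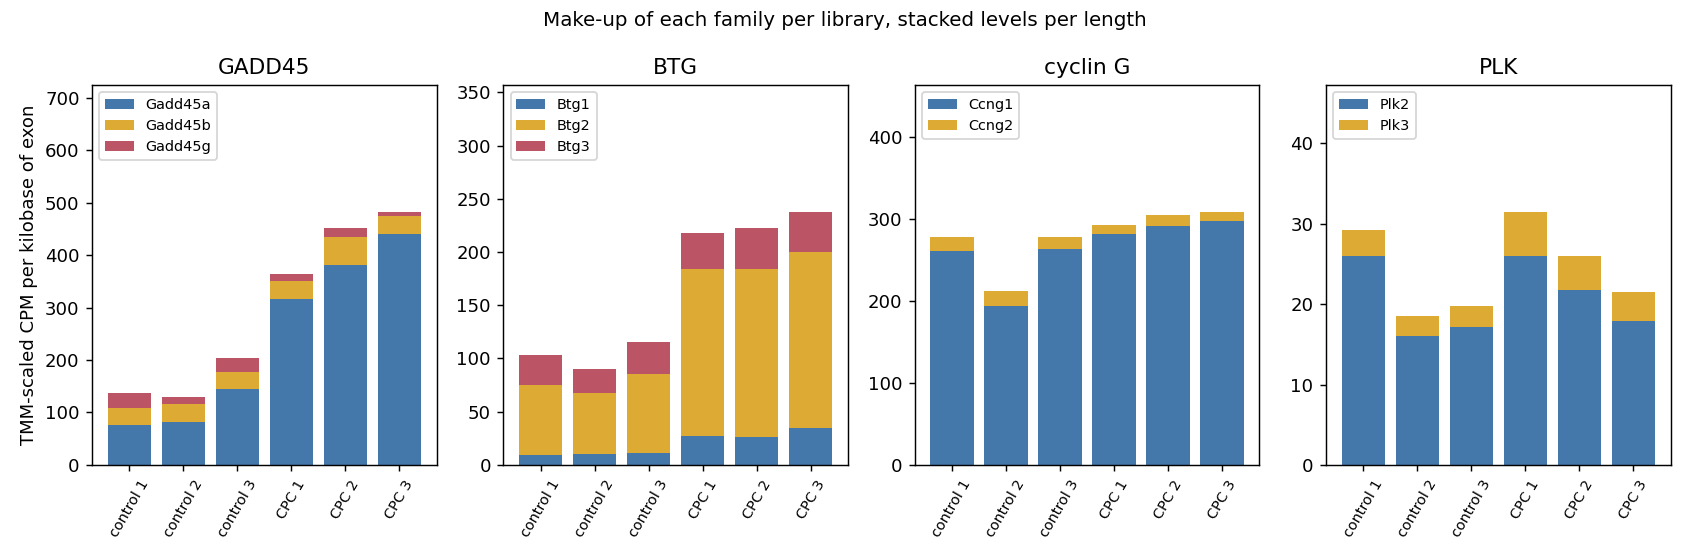
Stacked levels per length (TMM-scaled CPM per kilobase of exon, vertical axes from 0) of the genes of each family in each of the 6 libraries. The GADD45 sum rises from 130 to 203 in control to 363 to 483 in CPC. By group mean Gadd45a goes from 101 to 379, Gadd45b from 33.5 to 40.9 and Gadd45g from 22.6 to 12.6.

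All 3 BTG genes were higher in CPC, by unequal amounts. Btg1, first found at a translocation in B-cell leukaemia (chromosome 10, 96617006 to 96622809), had 45.2, 51.2 and 55.8 CPM in control 1 to 3 and 135, 131 and 172 CPM in CPC 1 to 3. All CPC libraries were far above all controls. The rise was 2.89-fold (95% interval 2.34 to 3.56; log2 change 1.53 ± 0.13; edgeR adjusted p = 3.92e-04). Counts of its near copies Btg1b and Btg1c were 0 to 3 per library.

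Btg2, a p53 target and immediate early gene (chromosome 1, 134075170 to 134079120), had 182, 156 and 202 CPM in control 1 to 3 and 430.1, 434 and 454 CPM in CPC 1 to 3. The CPC libraries lay close together, with an SD of 12.9 CPM against 23.0 CPM in control. The rise was 2.44-fold (95% interval 2.05 to 2.90; log2 change 1.29 ± 0.11; edgeR adjusted p = 3.62e-04). Both Btg1 and Btg2 were called in every setting tried.

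Btg3, a more distant relative that is also a p53 target (chromosome 16, 78332637 to 78377192), had 85.6, 69.1 and 92.5 CPM in control 1 to 3 and 104, 115 and 115 CPM in CPC 1 to 3. The groups did not overlap, but the gap from control 3 to CPC 1 was small. The rise was 1.35-fold (95% interval 1.12 to 1.62; log2 change 0.43 ± 0.11; edgeR adjusted p = 0.0220). Leaving out control 1, CPC 2 or CPC 3 ended the call (edgeR adjusted p 0.0503 to 0.0599), as did dropping replicate 1 or 2 from both groups (0.0921 and 0.0750). Cxadr, on the opposite strand, shares 695 of the 4014 exon bases of Btg3 in GENCODE M21 and rose from 151 to 293 CPM (log2 change 0.95; edgeR adjusted p = 0.00231). With the strand of counting unstated, the Btg3 count is uncertain.

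Btg2 was the main BTG transcript per length, at 63.6% ± 0.359 of the family sum in control and 70.8% ± 1.15 in CPC (SD, n = 3). Btg3 fell as a share from 26.5% ± 0.989 to 16.3% ± 0.730, although its own level was higher. The family sum was 103 ± 12.7 CPM per kilobase in control and 226 ± 10.4 in CPC.

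Of the cyclin G genes Ccng2 was lower in CPC, and Ccng1 was not called without the replicate block. Ccng1 (chromosome 11, 40748552 to 40755311) had 917, 681 and 925 CPM in control 1 to 3 and 989, 1025 and 1045 CPM in CPC 1 to 3. Control 2 was low, and all CPC libraries were above all controls by a narrow gap. The log2 change was 0.28 ± 0.14 (edgeR adjusted p = 0.143), with an interval of -0.039 to 0.59. With the replicate block it was 0.29 ± 0.11 and passed the threshold (adjusted p = 0.0472), with pair differences of 0.11, 0.59 and 0.18 on the log2 scale.

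Ccng2 (chromosome 5, 93267257 to 93276231) had 48.9, 52.0 and 42.8 CPM in control 1 to 3 and 33.5, 37.8 and 32.9 CPM in CPC 1 to 3. Every CPC library was below every control. It was 1.38-fold lower in CPC (95% interval 1.17 to 1.63; log2 change -0.47 ± 0.10; edgeR adjusted p = 0.0109). The call was kept without any 1 library (adjusted p up to 0.0472) and lost without replicate 1 of both groups (0.125).

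Plk3 was higher in CPC and Plk2 was not called. Plk3 (chromosome 4, 117128655 to 117133963) had 7.74, 5.80 and 6.25 CPM in control 1 to 3 and 13.1, 10.3 and 8.67 CPM in CPC 1 to 3, from 133 to 306 counts per library. It was the lowest of the 10 members, and replicate 1 was the highest library in each group. The rise was 1.62-fold (95% interval 1.17 to 2.25; log2 change 0.70 ± 0.20; edgeR adjusted p = 0.0297). Leaving out control 2, control 3, CPC 1 or CPC 2 ended the call (edgeR adjusted p 0.0614 to 0.0910), and so did dropping replicate 1 or 2 from both groups (0.110 and 0.133).

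Plk2 (chromosome 13, 110395046 to 110400844) had 72.7, 44.9 and 48.0 CPM in control 1 to 3 and 72.8, 60.8 and 50.1 CPM in CPC 1 to 3. CPC 1 lay above control 1 by a log2 difference of 0.0017, and the groups overlapped over most of their range. Control 1 and CPC 1, the highest libraries of their groups for both kinases, were also those with the highest sums of surface epithelium markers, whose part in the kinase levels was not tested. The log2 change was 0.15 ± 0.22 (edgeR adjusted p = 0.619), with an interval of -0.37 to 0.67. With the replicate block the interval narrowed to -0.046 to 0.37 (adjusted p = 0.161).

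**Figure D3:**
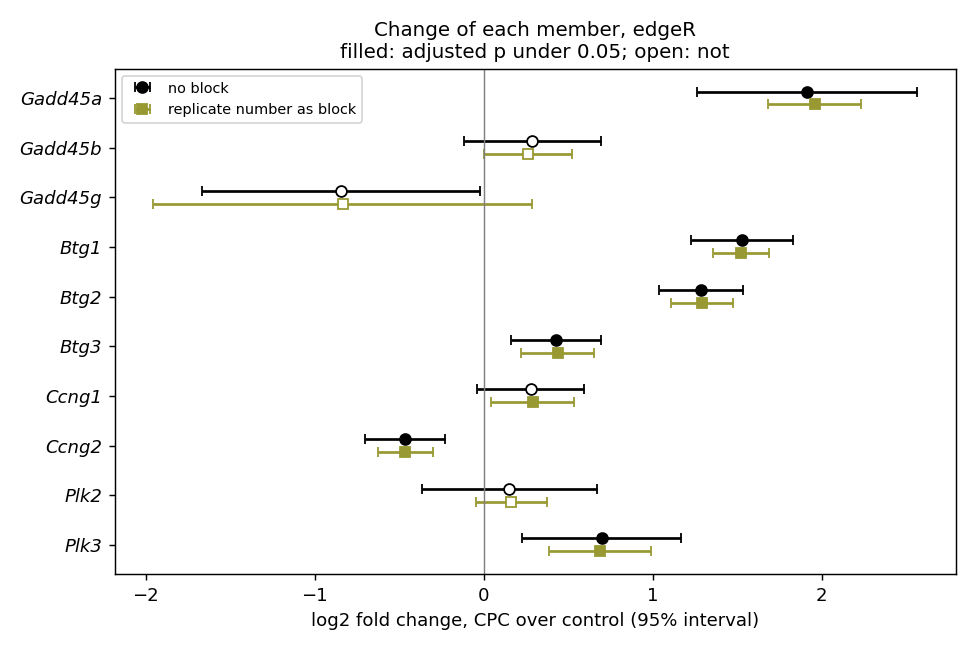
Log2 fold change of CPC over control (horizontal axis) of the 10 genes with its 95% interval, by edgeR without a block (circles) and with a block for the replicate pairs (squares). Filled symbols passed an adjusted p of 0.05; the block adds Ccng1 and widens the interval of Gadd45g.

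Per kilobase of exon, levels in control ran from Ccng1 at 239 ± 39.5 CPM per kilobase (SD, n = 3) through Gadd45a at 101 ± 37.5 and Btg2 at 65.7 ± 8.40 to Plk3 at 2.77 ± 0.426. Between them lay Gadd45b, Btg3, Gadd45g, Plk2, Ccng2 and Btg1 in that order. The ranges of neighbours overlapped for Btg3 with Gadd45g, Gadd45g with Plk2, and Plk2 with Ccng2. In CPC Gadd45a came first, at 379 ± 62.5 CPM per kilobase, ahead of Ccng1 at 290.3 ± 8.12 and Btg2 at 160.2 ± 4.72. Btg1 moved from the ninth place to the sixth, at 29.3 ± 4.49 CPM per kilobase, and Gadd45g from the sixth to the eighth, at 12.6 ± 4.23. Neighbours whose ranges overlapped in CPC were Gadd45b with Btg3, Btg3 with Btg1, and Gadd45g with Ccng2.

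The log2 ratio of family members within a library, which does not depend on scaling between libraries, was compared for 8 pairs. In 7 of them the groups did not overlap, and each of these 7 had an exact two-sided permutation p of 0.1, the smallest that 3 against 3 libraries can give (0.114 adjusted over the pairs), so no pair could pass the threshold. Gadd45a over Gadd45g gained most, from 2.35 ± 0.65 to 5.15 ± 0.62 on the log2 scale (SD, n = 3), and Gadd45a over Gadd45b went from 1.46 ± 0.48 to 3.16 ± 0.44. Btg2 over Btg3 went from 1.13 ± 0.046 to 1.99 ± 0.067, with the tightest spread of the 8 pairs among the control libraries. Ccng1 over Ccng2 went from 4.12 ± 0.37 to 4.88 ± 0.11, and Plk2 over Plk3 from 3.04 ± 0.16 to 2.52 ± 0.045. The pair whose groups overlapped was Btg1 over Btg2, at -1.83 ± 0.20 in control and -1.60 ± 0.17 in CPC (exact permutation p = 0.3).

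Close relatives outside the 10 genes gave 1 fall among 5 tested and 0 rises by edgeR, where 19.7% of all tested genes fell and 19.6% rose. There was 1 rise, Ccni, at an unadjusted p under 0.05, 1 with the replicate block, 1 with library size alone, and 0 by DESeq2 and limma-voom. Plk1, the mitotic polo-like kinase, fell from 18.2 ± 5.25 to 5.55 ± 1.66 CPM (mean ± SD, n = 3; edgeR adjusted p = 0.00404). Tob1 and Tob2, BTG-related genes that also bind the deadenylase, had log2 changes of -0.15 and 0.13, and Plk4, the centriole duplication kinase, had -0.0096 (edgeR adjusted p = 0.332, 0.418 and 0.969). Btg4, the oocyte deadenylation adaptor, had 0 counts in control and 1 count in each CPC library and was not tested, and Plk5 had 2 to 4 counts per library.

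Genes for kinases and cell cycle proteins bound or driven by GADD45 had lower transcript levels where they were called. By edgeR 7 of 13 tested fell and 0 rose (0 rises also at an unadjusted p under 0.05, by DESeq2 and by limma-voom). Of all tested genes 19.7% fell, and the median log2 change of the 13 was -0.43. Among the 6 not called were Map3k4, Map2k7, Mapk8 and Mapk9. Their log2 changes were 0.11, -0.12, 0.16 and 0.041 (edgeR adjusted p = 0.399, 0.243, 0.145 and 0.678). Of the 7 falls 3 (Cdk1, Ccnb1 and Pcna) are also among the proliferation genes described further on. Map2k6 and Map2k3 encode the kinases directly above p38. Map2k6, at 5.85 ± 0.530 CPM in control (mean ± SD, n = 3), was 2.91-fold lower in CPC, and Map2k3 fell from 47.5 ± 2.30 to 34.1 ± 1.84 CPM (edgeR adjusted p = 0.00223 and 0.00407). Mapk14, p38 alpha itself, fell from 76.6 ± 5.60 to 56.8 ± 2.62 CPM, and the replication clamp gene Pcna fell from 62.9 ± 1.75 to 45.9 ± 3.61 CPM. With replicate 1 dropped from both groups 1 fall was left.

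Of 16 genes for mRNA deadenylation 7 rose and 2 fell by edgeR, against 19.6% and 19.7% of all tested genes. Their median log2 change was 0.17. The list holds CCR4-NOT, the complex that BTG proteins recruit, and genes outside it such as Pabpc1 and Parn. Within CCR4-NOT, Cnot1, Cnot3 and Cnot10 rose and Cnot6 and Cnot11 fell. Cnot7 and Cnot8 were among its genes not called (log2 change -0.066 and 0.099, edgeR adjusted p = 0.460 and 0.324). Pabpc1, the cytoplasmic poly(A)-binding protein, rose from 840.5 ± 66.4 to 1438 ± 55.7 CPM (mean ± SD, n = 3; edgeR adjusted p = 0.00165), and Parn, a poly(A)-specific ribonuclease, rose from 55.3 ± 3.90 to 79.4 ± 2.61 CPM. Cnot3, a subunit of CCR4-NOT, rose 1.20-fold, and Cnot6, a catalytic subunit, fell from 302 ± 21.9 to 222 ± 25.4 CPM. Rises numbered 2 to 5 and falls 0 to 2 when 1 library was left out.

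Of 12 genes for cyclin G partners 3 rose and 1 fell, against 19.6% and 19.7% of all tested genes. Their median log2 change was 0.042, and 8 were not called. The phosphatase 2A regulatory subunit gene Ppp2r5d rose 1.27-fold, the cyclin G-associated kinase gene Gak rose 1.30-fold, and Mdm2, the p53 ubiquitin ligase gene, rose from 217 ± 40.1 to 306 ± 27.3 CPM (mean ± SD, n = 3; edgeR adjusted p = 0.0320). Cdk5, a kinase that binds cyclin G1, fell from 33.7 ± 3.13 to 20.3 ± 4.70 CPM (edgeR adjusted p = 0.0129). By edgeR 0 rises were left without replicate 1 of both groups (3 at an unadjusted p under 0.05; DESeq2 was not run on that subset), and Cdk5 lost its call when CPC 1, or replicate 1 or 2 of both groups, was left out.

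Among 13 tested genes for upstream regulators of these families, 7 rose and 1, Brca1, fell, against 19.6% and 19.7% of all tested genes. Myc and Egr1 are also counted among the immediate early genes described further on. The falls numbered 3 with the replicate block and 2 by DESeq2, without the filter on low counts, without control 3, without CPC 3 or with replicate 3 dropped from both groups. Ddit3, which encodes the stress factor CHOP, rose from 23.4 ± 14.6 to 248 ± 17.4 CPM (mean ± SD, n = 3; edgeR adjusted p = 0.00282), Atf4 from 342 ± 46.6 to 602 ± 23.4 CPM, Myc 1.53-fold and the NF-kB subunit gene Rela 1.35-fold. Trp53, the p53 gene, rose 1.26-fold and Foxo3 rose 1.41-fold (edgeR adjusted p = 0.0217 and 0.0246). Foxo1 and Foxo4 had log2 changes of -0.80 and 0.12 and were not called (edgeR adjusted p = 0.114 and 0.437). Rises numbered 3 without replicate 1 of both groups.

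Immediate early genes, a class that includes Btg2, Plk2 and Plk3, went both ways: 5 of 22 rose and 5 fell (7 and 6 with the replicate block), shares near the 19.6% and 19.7% of all tested genes. Fos fell from 37.9 ± 6.22 to 13.3 ± 2.83 CPM (mean ± SD, n = 3; edgeR adjusted p = 0.00132), Klf6 from 151 ± 20.1 to 70.4 ± 10.2 CPM and Zfp36, an mRNA decay factor, from 48.0 ± 4.22 to 28.1 ± 3.19 CPM. Klf4 rose from 11.8 ± 5.48 to 66.1 ± 19.1 CPM and Atf3 from 6.92 ± 3.83 to 38.1 ± 8.34 CPM (edgeR adjusted p = 0.00414 and 0.00501). The other rises were Myc, Fosl1 and Jund. Proliferation genes fell, 15 of 16, with a median log2 change of -1.25, and Mcm2, a replicative helicase subunit, rose 1.48-fold. Rrm2, a ribonucleotide reductase subunit, was 3.38-fold lower, and Mcm5 and Mcm3, the partners of Mcm2 in the helicase, were 2.52-fold and 1.81-fold lower. The 15 falls became 9 without control 2. Dropping replicate 1 from both groups left 2 of them, and dropping replicate 2 left 5.

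**Figure D4:**
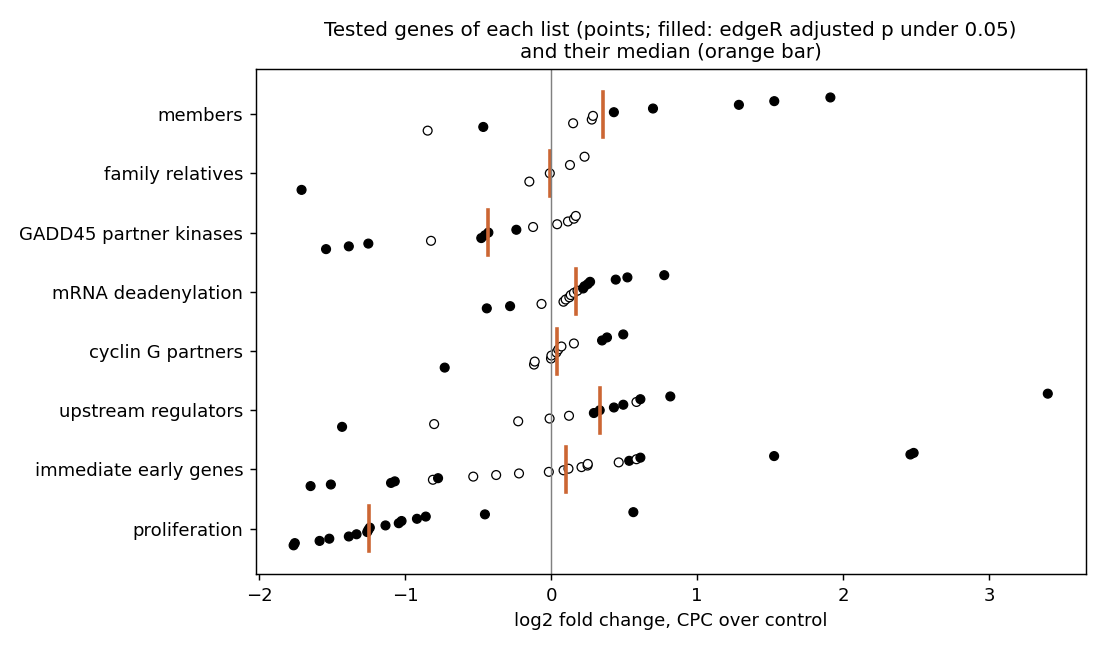
Log2 fold change of CPC over control (horizontal axis) of each tested gene, by list; filled points passed an edgeR adjusted p of 0.05 and orange bars are medians. The members have a median of 0.36 and the proliferation genes a median of -1.25. The list of GADD45 partner kinases, which also holds Cdk1, Ccnb1 and Pcna of the proliferation list, has a median of -0.43.

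The genes closest to each member over the 6 libraries were taken among 10339 others, by the root mean square difference of log2 CPM centred on each gene's own mean. Nearest to Gadd45a were Snhg5, a snoRNA host gene, Tbc1d31 and Ptpru, at 0.13, 0.14 and 0.14. Btg1 was nearest to Mettl22, Snhg6 and Ampd3 (0.11 each), and Btg2 to Dgkd, Aldh6a1 and Abcc1, a glutathione conjugate exporter (0.041, 0.069 and 0.070). Btg3 was nearest to Ing2, Nsa2 and Mphosph10 (0.037 to 0.043). Ccng2 had the closest match of all members, Bahcc1 at 0.024, followed by Sufu, an inhibitor of Hedgehog signalling, and Casp6. Ccng1 was nearest to Mphosph8, Slc6a8 and Klhl12, Gadd45b to Isoc1, Aplp2 and Agpat5, Plk2 to the Notch ligand gene Jag1, Zfp612 and Ddias, and Plk3 to the glucose transporter gene Slc2a1 and Zfp420. Gadd45g had no gene nearer than 0.25 (Cald1).

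**Figure D5:**
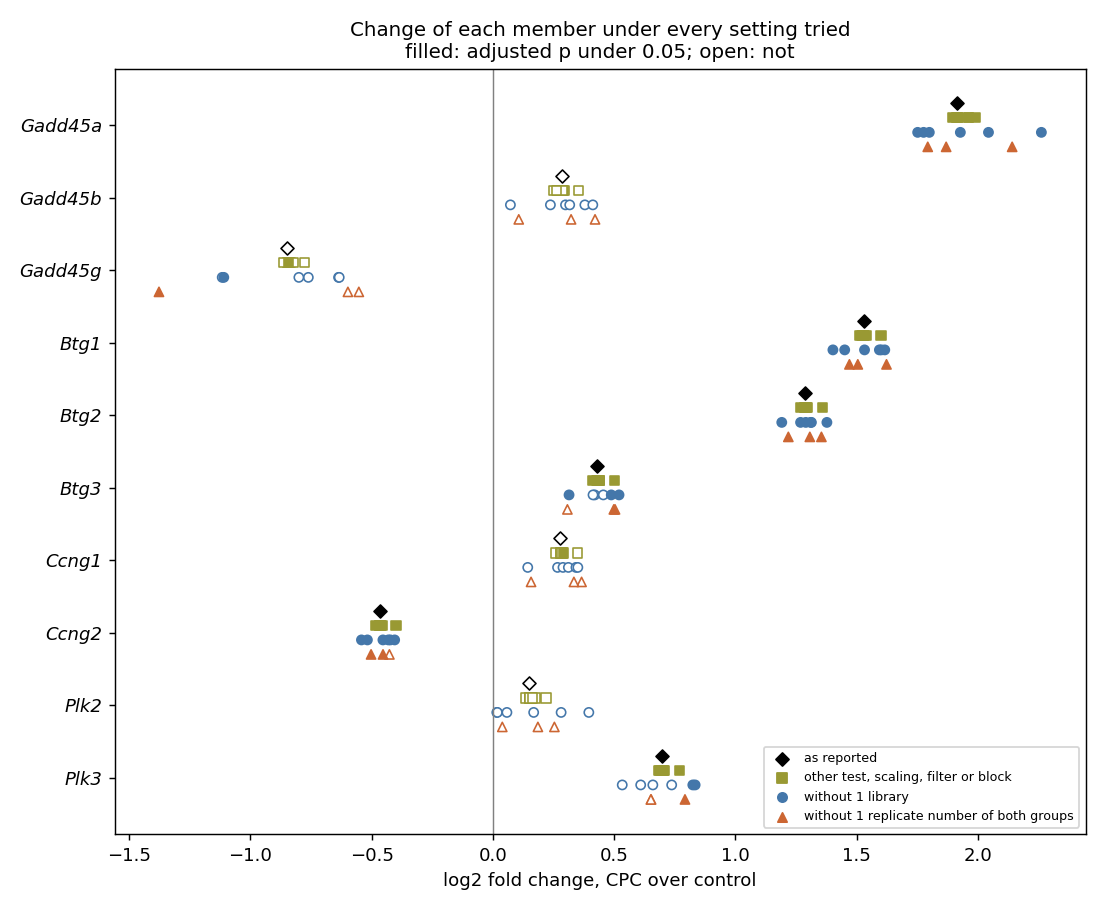
Log2 fold change of CPC over control (horizontal axis) of each member as reported, under other tests, scalings, filters or the block, without 1 library, and without 1 replicate number of both groups. Filled symbols passed an adjusted p of 0.05; no member changes sign, and Gadd45a, Btg1 and Btg2 are filled throughout.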

How the data were processed

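RNA was sequenced in 6 libraries, 3 control and 3 CPC, whose titles give group and number. Silica columns and a SMARTER mRNA-seq kit were used, per the labels' protocols. Per the submitters' processing notes, Bowtie2, RSEM and the human build hg19 were used, with no versions. Gene locations lie on GRCm38.p6, per the file headers, so the aligner and counter behind these files are uncertain, as is their handling of strand and of reads shared between genes. The deposited values are whole-number counts per gene, beside exon lengths.

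Of 26620 genes with any count, filterByExpr kept 15000. These were TMM-scaled and tested in R 4.3.3 with edgeR 4.0.16 (robust quasi-likelihood, no covariate; Benjamini-Hochberg threshold 0.05). Each standard error is |log2 change| over the root of its F statistic. CPM are TMM-scaled. Member ratios had exact permutation tests. Scripts were tested on simulated counts. Alternatives were DESeq2 1.42.0, limma-voom 3.58.1, RLE factors, library size alone, no filter, 5 CPM in 3 libraries, summed identifiers, a pseudocount of 1 CPM for ratios, a replicate block and the omission of each library. Omitting 1 replicate number from both groups was chosen after seeing the data.

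Replicate numbers pair the libraries: across genes, deviations from group means had correlations of 0.626, 0.576 and 0.596 for equal numbers and of -0.342 to -0.238 for unequal ones. The labels do not say what a number shares. All 10 members are named, with up to 4 genes of every other list by smallest adjusted p and up to 3 nearest genes per member (some are not reported here); other named genes were chosen after their values were seen. Members and lists were chosen with earlier results of these data known.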

Additional observations from a re-analysis of the deposited data

How the results depend on the processing

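Gadd45a, Btg1 and Btg2 stayed called and no member changed direction under any alternative. Leaving out 1 library or 1 replicate number of both groups gave log2 changes of 1.75 to 2.26 for Gadd45a, 1.40 to 1.62 for Btg1, 1.19 to 1.38 for Btg2, 0.31 to 0.52 for Btg3, -0.54 to -0.40 for Ccng2, 0.53 to 0.83 for Plk3, 0.072 to 0.42 for Gadd45b, -1.38 to -0.55 for Gadd45g, 0.14 to 0.37 for Ccng1 and 0.016 to 0.40 for Plk2. Within these ranges, leaving out 1 library gave -1.12 to -0.63 for Gadd45g, 3 to 4 higher and 1 to 2 lower members, and 1932 to 2613 higher and 2047 to 2576 lower genes among all tested. Without replicate 1 of both groups Btg3 (0.50), Ccng2 (-0.43) and Plk3 (0.65) lost their calls, 3 members were higher and 0 lower by edgeR (1 lower at an unadjusted p under 0.05; DESeq2 was not run on that subset), and 928 genes were higher and 1033 lower. Without replicate 2 of both groups Btg3 (0.31) and Plk3 (0.65) lost theirs, Gadd45g (-1.38) gained one, 3 members were higher and 2 lower, and 1736 genes were higher and 1650 lower. DESeq2 also called Gadd45g (log2 change -0.84), giving 2 lower members. The replicate block added Ccng1 (log2 change 0.29), changed no other member's call, and gave 3978 higher and 4178 lower genes in all. The causes were not tested. Ratios between members kept their direction with a pseudocount of 1 CPM and without any 1 library, the alternatives run on them. Library size alone moved the median of the tested genes by 0.069 on the log2 scale. With 3 libraries a group, the intervals of Gadd45b, Ccng1 and Plk2 included no change. With the block those of Gadd45b (0.0040 to 0.52) and Ccng1 (0.046 to 0.54) did not, and that of Gadd45g did (-1.96 to 0.29). Plk3 rests on the fewest counts.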
